A study of Mus musculus with 4 samples.

Results

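AI506816 and Rint1 lie on mouse chromosome 5 among 7 other measured genes, and these 9 genes of a 0.5-Mb window are described here across 4 RNA sequencing libraries. The 9 were taken by name from 22084 genes in the deposited tables. The window was selected on the difference between knockout and carrier libraries in AI506816 and Rint1, so values in that contrast are given as a description, and calls in it restate the choice. A further 2 genes of the files lie in the window, Gm25219 and Gm43054, with at most 6 counts in any library. The 4 libraries came from telencephalic tissue of mouse embryos (E13.5) on the mixed strain B6D2F2, and the extraction protocol names cerebral cortex instead. KO26F and KO23M are labelled TCF20-/-, without an intact allele of the nuclear protein gene Tcf20. WT25F is labelled TCF20+/+, while WT22M has a wild-type title and a TCF20+/- genotype field, so this pair is called the carriers. The labels do not say how the allele was made or whether animals were pooled, and the design text speaks of triplicates, whereas 2 libraries per arm were analysed here. Depth ran from 17791641 to 18509743 counts. Tcf20 itself stood at 98.6 CPM (counts scaled to each library's total) in KO26F and 104 in KO23M, against 118 in WT25F and 111 in WT22M.

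Of the 9 genes, 5 encode proteins. Kmt2e encodes a chromatin protein with a PHD finger and a SET domain, and Srpk2 a kinase that phosphorylates SR splicing factors. Pus7 converts uridine to pseudouridine in transfer and messenger RNA. Rint1 joins Zw10 and Nbas in a tether at the endoplasmic reticulum that receives vesicles returning from the Golgi, and Tomm7 is a small subunit of the pore through which proteins enter mitochondria. The other 4 are annotated as non-coding. Such transcripts often serve as hosts for small nucleolar RNAs, which are cut from introns and guide chemical changes of ribosomal and other RNAs.

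Positions are on GRCm38, in order along the chromosome. Kmt2e runs from 23434441 to 23504235 on the plus strand. Srpk2 runs from 23503264 to 23684617 on the minus strand, and the sense-intronic Gm43566 (23674739 to 23675546) lies inside one of its introns. AI506816, a processed transcript, occupies 23698296 to 23712667 on the minus strand. Pus7 (23740648 to 23783711, minus) and Rint1 (23787711 to 23820369, plus) point away from each other, with 4000 bases between their starts. The transcribed processed pseudogene 4933427G23Rik (23815618 to 23831897, minus) overlaps the end of Rint1 on the opposite strand, sharing 190 bases of exon, or 7.55% of its own exon length. Tomm7 (23838944 to 23844161, minus) and the lincRNA 2700038G22Rik (23850597 to 23855038, plus) close the window. AI506816 and 2700038G22Rik, whose starts are 138 kb apart, each hold a small nucleolar RNA in an intron.

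Promoter sequences are shown for AI506816, 2700038G22Rik and Rint1 because these genes were lower in both knockouts than in both carriers, as described below. The promoters of the first pair are also nearly the same over most of their length. They come from RefSeq (GRCm38.p6) and cover 250 bases before and 50 after the start. In the first pair capitals mark bases identical in their alignment, and in Rint1 the letters AGGGGGCGC. The regions are chr5:23712618-23712917 (minus strand) for AI506816, chr5:23850347-23850646 (plus strand) for 2700038G22Rik and chr5:23787461-23787760 (plus strand) for Rint1.
AI506816: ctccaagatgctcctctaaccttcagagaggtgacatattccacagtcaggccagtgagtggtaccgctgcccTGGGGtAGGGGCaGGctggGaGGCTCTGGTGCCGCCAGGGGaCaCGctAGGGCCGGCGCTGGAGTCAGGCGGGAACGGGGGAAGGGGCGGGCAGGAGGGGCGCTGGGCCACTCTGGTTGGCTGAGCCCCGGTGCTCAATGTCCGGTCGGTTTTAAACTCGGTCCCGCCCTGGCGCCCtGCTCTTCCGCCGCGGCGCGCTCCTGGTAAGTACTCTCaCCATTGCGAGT
2700038G22Rik: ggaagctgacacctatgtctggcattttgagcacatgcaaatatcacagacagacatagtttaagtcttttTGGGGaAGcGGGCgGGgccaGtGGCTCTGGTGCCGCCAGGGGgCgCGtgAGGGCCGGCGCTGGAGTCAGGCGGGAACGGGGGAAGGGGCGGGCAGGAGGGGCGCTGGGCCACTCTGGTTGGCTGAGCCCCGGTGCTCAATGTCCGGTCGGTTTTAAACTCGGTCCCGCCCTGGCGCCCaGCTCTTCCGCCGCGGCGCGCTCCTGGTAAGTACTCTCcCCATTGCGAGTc
Rint1: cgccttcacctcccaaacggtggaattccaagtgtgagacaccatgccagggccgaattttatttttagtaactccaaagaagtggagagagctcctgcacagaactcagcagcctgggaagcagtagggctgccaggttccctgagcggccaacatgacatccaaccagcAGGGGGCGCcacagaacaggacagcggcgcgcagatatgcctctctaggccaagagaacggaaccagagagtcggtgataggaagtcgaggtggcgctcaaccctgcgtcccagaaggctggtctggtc

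The AI506816 and 2700038G22Rik promoters shared 214 identical bases over 228 aligned positions (93.9%), with an unbroken run of 129. None of the other pairs among the 5 members with a promoter entry aligned over more than 61 positions, with the first entry used for Srpk2 and Pus7, which have several. GC content was 66.3% in AI506816, 64.3% in 2700038G22Rik and 57.3% in Rint1. The letters AGGGGGCGC, part of the core motif of the insulator protein CTCF, were searched on both strands. They occurred 1 time in the Rint1 promoter and 1 time in the 2700038G22Rik promoter, and not in the window shown for AI506816, where the aligned stretch differs at the lower-case letters. Of 32851 mouse promoters of the same length, 1.25% held a match. GGGCGG, the core of the GC box, was present in 35.7% of all promoters, with 2 matches in AI506816, 3 in 2700038G22Rik and none in Rint1. TATAAA, found in 13.6% of promoters, matched none of these 3. The likeness went beyond the promoter: 1 AI506816 transcript, of 345 bases, matched a 2700038G22Rik transcript at 331 of 347 aligned positions (95.4%). It did not run through whole genes, since the longest AI506816 transcript (2804 bases) and the longest 2700038G22Rik transcript (1375 bases) aligned over 104 positions.

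The hosted small RNAs are shown because they form a near-identical pair. They are taken from GENCODE vM21, chr5:23710991-23711061 on the minus strand for Mir3096, which that annotation classes as a small nucleolar RNA, and chr5:23852210-23852280 on the plus strand for Snord93.
Mir3096: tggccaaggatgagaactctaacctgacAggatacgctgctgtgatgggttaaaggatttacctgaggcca
Snord93: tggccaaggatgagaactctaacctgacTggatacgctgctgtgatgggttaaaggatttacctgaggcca

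Both are 71 bases long and differ by 1 substitution, A29T, counted from the 5′ end of Mir3096 and marked by the capital. Mir3096 and Snord93 have no values of their own in the tables joined here, so only their host genes are described below.

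AI506816 was almost absent from the knockout libraries. It had 10 counts (0.552 CPM) in KO26F and 4 counts (0.216 CPM) in KO23M, against 1004 counts (55.9 CPM) in WT25F and 1112 counts (62.5 CPM) in WT22M. Both carriers were high, both knockouts were at 10 counts or fewer, and the groups were far apart. A count of 0 would allow up to 3 counts, or 0.162 to 0.169 CPM in these libraries. The knockout mean of 0.384 ± 0.237 CPM was 0.648% of the carrier mean of 59.2 ± 4.63 CPM (SD, n = 2 each). The ratio of KO26F to WT25F was 0.010, a log2 ratio of -6.66 with a 95% counting interval of -7.73 to -5.78. The ratio of KO23M to WT22M, which shares no library with it, had a log2 value of -8.18 (-10.05 to -6.82). The intervals of these library pairs overlapped. The carriers differed little by comparison: WT22M held 1.12 times the level of WT25F (1.03 to 1.22). Intervals cover counting error only, not the spread between embryos. In bulk tissue, fewer cells that express a gene and less RNA per cell cannot be told apart.

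Rint1, the gene of the Golgi-to-reticulum tether, stood at about the same reduced level in each knockout library. It had 9.99 CPM in KO26F (181 counts) and 9.02 in KO23M (167 counts), against 17.8 CPM in each carrier, from 319 counts in WT25F and 316 in WT22M. The groups did not overlap, and within each group the libraries were close together. The knockout mean of 9.50 ± 0.681 CPM was 53.5% of the carrier mean of 17.8 ± 0.0111 CPM (SD, n = 2 each). KO26F held 0.562 times the level of WT25F (95% counting interval 0.465 to 0.676), and KO23M 0.508 times that of WT22M (0.419 to 0.615). WT22M over WT25F was 0.999 (0.852 to 1.17). Gm43054, an unclassified transcript inside a Rint1 intron on the same strand, had 1 count in KO26F and 0 in KO23M, against 6 counts in WT25F and 6 in WT22M. Its ratio of knockouts to carriers was 0.081, with a counting interval of 0.002 to 0.549.

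**Figure D1:**
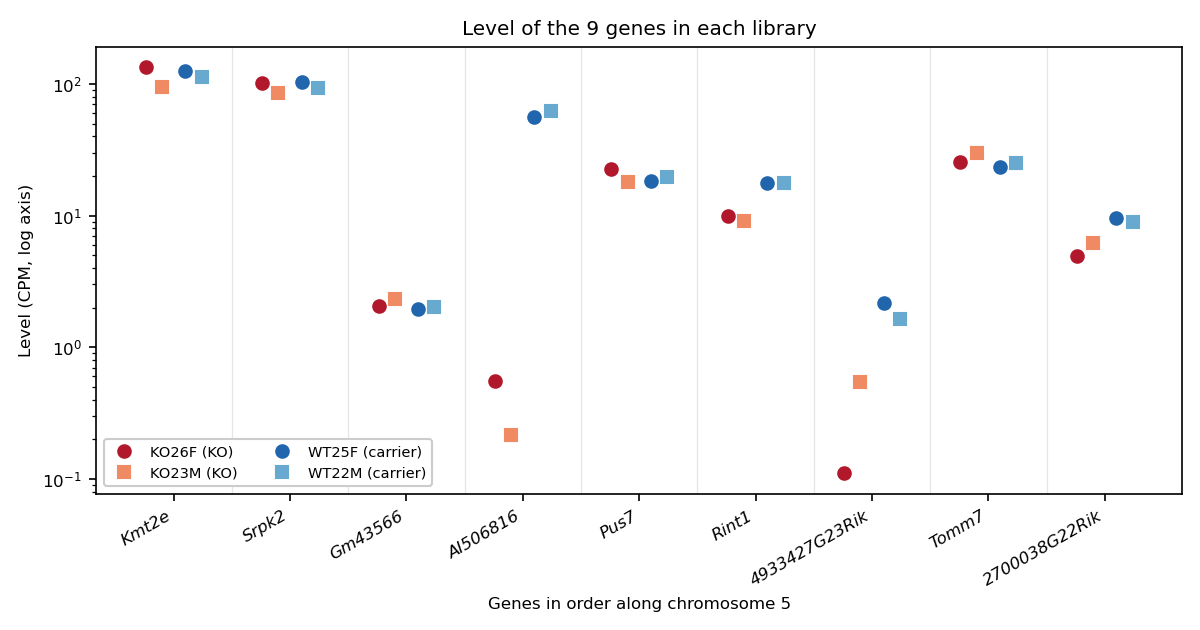
Level of each of the 9 genes in CPM (log axis) in the 4 libraries, with genes in order along chromosome 5 and 1 point per library. The knockout points (reds) lie below both carrier points (blues) for AI506816, Rint1, 4933427G23Rik and 2700038G22Rik, and the widest gap is that of AI506816, from 0.552 CPM in KO26F to 55.9 CPM in WT25F.

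A further 2 transcripts were lower in both knockouts than in both carriers. The pseudogene 4933427G23Rik, whose parent Imp3 encodes a component of the ribosomal RNA processing machinery, had 2 counts in KO26F and 10 in KO23M, against 39 in WT25F and 29 in WT22M. These are 0.110 and 0.540 CPM in the knockouts, and 2.17 and 1.63 CPM in the carriers. It passed the filter on low counts, which asks for about 10 counts in 2 libraries, only with the carriers, and the KO26F value lies under the limit that a count of 0 allows. The knockouts differed from each other by 4.90 times (KO23M over KO26F, counting interval 1.04 to 46.0), so the size of the difference from the carriers is poorly fixed. KO26F over WT25F was 0.051 (0.006 to 0.196) and KO23M over WT22M was 0.331 (0.144 to 0.700).

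The lincRNA 2700038G22Rik, which shares promoter sequence with AI506816 and hosts Snord93, had 4.91 CPM in KO26F and 6.16 in KO23M, against 9.53 in WT25F and 8.99 in WT22M. Both knockouts were below both carriers, with counts of 89 and 114 in the knockouts and 171 and 160 in the carriers. The knockout mean of 5.53 ± 0.883 CPM was 59.8% of the carrier mean of 9.26 ± 0.379 CPM (SD, n = 2 each). KO26F over WT25F was 0.515 (counting interval 0.394 to 0.670) and KO23M over WT22M was 0.685 (0.534 to 0.876). How reads that match both transcripts were assigned was not given in the sources used here. Summed over both transcripts, the level was 5.46 CPM in KO26F and 6.38 in KO23M, against 65.5 in WT25F and 71.5 in WT22M. In the carriers most of the sum is AI506816, the gene chosen for this difference. Reads left out of the counts because they match both transcripts would be missing from the sum. The part of read assignment in these differences was not tested.

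The other 5 genes were not lower in both knockouts. Kmt2e, the chromatin protein gene, had 134 CPM in KO26F and 95.1 in KO23M, against 125 in WT25F and 112 in WT22M, so the knockouts held both the highest and the lowest value. Srpk2, the splicing-factor kinase gene, had 102 and 85.9 CPM in KO26F and KO23M, against 104 and 93.9 in WT25F and WT22M. Kmt2e and Srpk2 share 972 bases of exon on opposite strands at their ends, 9.31% of Kmt2e exon bases and 6.99% of those of Srpk2. Reads from that stretch could have been counted for either gene or for neither, since the strand setting was not given in the sources used here. Pus7, the pseudouridine synthase gene that starts beside Rint1, had 22.5 CPM in KO26F and 18.2 in KO23M, against 18.4 in WT25F and 19.8 in WT22M, and the groups overlapped.

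Tomm7, the mitochondrial import subunit that lies between 4933427G23Rik and 2700038G22Rik, had 25.6 CPM in KO26F and 29.9 in KO23M, against 23.2 in WT25F and 25.3 in WT22M. Both knockouts were just above both carriers, and their mean was 114% of the carrier mean. Gm43566, inside an intron of Srpk2, had 2.04 CPM in KO26F and 2.32 in KO23M, against 1.95 in WT25F and 2.02 in WT22M, from 35 to 43 counts. That ordering rests on differences of a few counts, and the ratio of both knockouts to both carriers had a counting interval of 0.788 to 1.53.

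All 9 genes passed the low-count filter with 16252 genes in all. By edgeR's quasi-likelihood test with Benjamini-Hochberg adjustment at 0.05, 2 of the 9 were called between knockouts and carriers, AI506816 and Rint1, beside 0.0615% of all tested genes. Both were lower in the knockouts, beside 0.0308% of tested genes called lower, and none of the 9 was called higher, beside 0.0308%. These are the calls by which the window was chosen, and nothing is read from them. Both knockouts lay below both carriers for 4 of the 9, beside 13.4% of tested genes, and above them for 2, beside 13.6%. The groups overlapped for 3. AI506816 and Rint1 are among the 4 by the choice of the window, and 4933427G23Rik passed the filter only with the carriers. Nothing is therefore read from that share either. Fitted log2 fold changes were -7.25 (SE 0.23) for AI506816, -2.51 (SE 0.57) for 4933427G23Rik, -0.91 (SE 0.17) for Rint1 and -0.74 (SE 0.21) for 2700038G22Rik. Each edgeR SE is the absolute log2 fold change divided by the square root of the test's F statistic. For AI506816 the SE was larger in DESeq2 (0.42) and limma voom (0.51). The counting interval of its log2 ratio, both knockouts over both carriers, was -8.15 to -6.53. For the remaining 5 genes the fitted log2 fold changes lay between -0.08 (Srpk2) and 0.19 (Tomm7). The lower genes did not form one block along the chromosome. Pus7 stands between AI506816 and Rint1, and Tomm7 between 4933427G23Rik and 2700038G22Rik. From the start of AI506816, the start of Srpk2 is 28.05 kb away on one side and that of Rint1 75.0 kb away on the other.

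**Figure D2:**
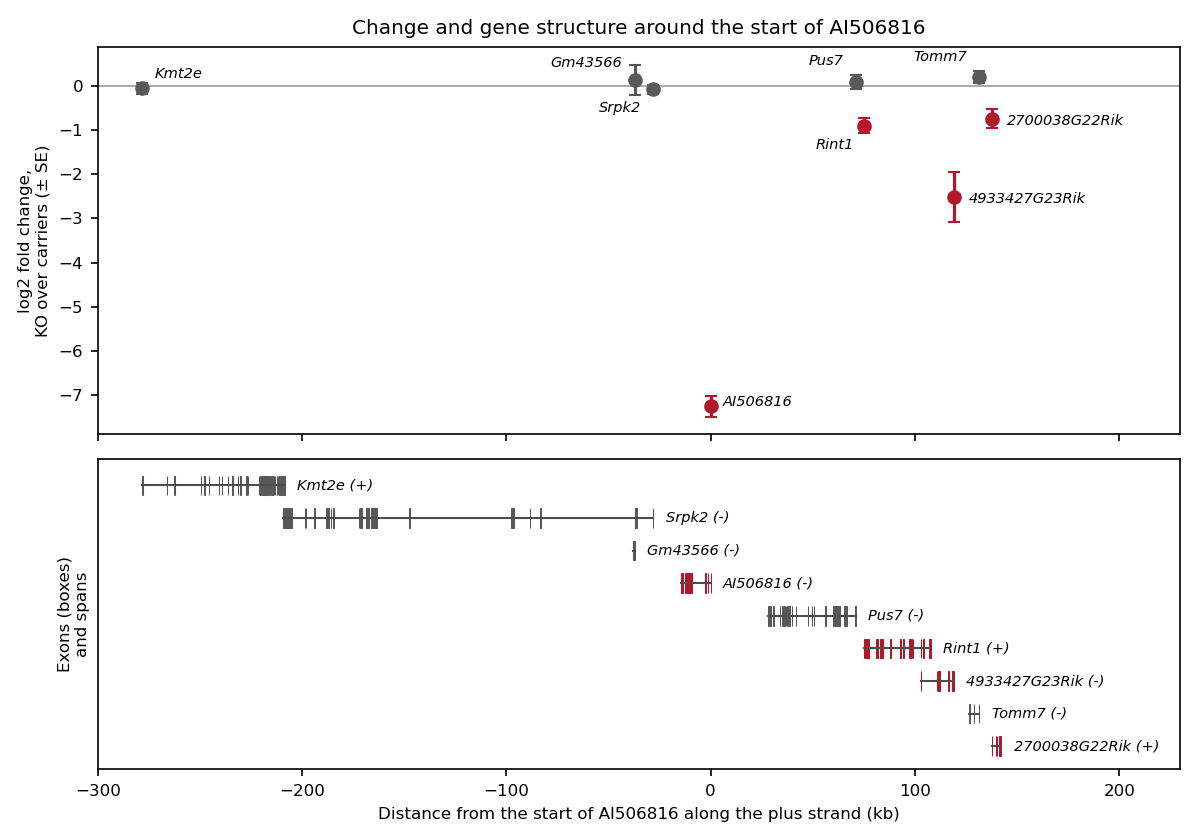
Upper panel, log2 fold change of knockouts over carriers (point, with the edgeR SE defined in the text as bar) at the start of each of the 9 genes. Lower panel, exons (boxes) and span of each gene, both against distance in kb from the start of AI506816, with genes whose knockouts lay below both carriers in red. The red genes, at -7.25, -0.91, -2.51 and -0.74, alternate with Pus7 and Tomm7 at 0.09 and 0.19.

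Levels between genes were compared as CPM per kilobase of exon. On this scale the carrier means ran from 21.6 for Tomm7, 13.2 for AI506816 and 11.4 for Kmt2e, through 7.12 for Srpk2 and 5.81 for 2700038G22Rik, to 2.46 for Gm43566, 2.40 for Rint1, 2.30 for Pus7 and 0.756 for 4933427G23Rik. In the knockouts the order was Tomm7 at 24.7, Kmt2e at 11.0, Srpk2 at 6.75, 2700038G22Rik at 3.47, Gm43566 at 2.70, Pus7 at 2.45, Rint1 at 1.28, 4933427G23Rik at 0.129 and AI506816 at 0.086. AI506816 stood second among the 9 in each carrier. In the knockouts AI506816 and 4933427G23Rik were the lowest and cannot be ordered, since 4933427G23Rik was below AI506816 in KO26F (0.044 against 0.123) and above it in KO23M (0.215 against 0.048), from 2 to 10 counts. Gm43566, Rint1 and Pus7 were within 0.2 of each other in the carriers and cannot be ordered there. Exon length counts the bases covered by any annotated transcript, so a gene of which few exons are used reads low.

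**Figure D3:**
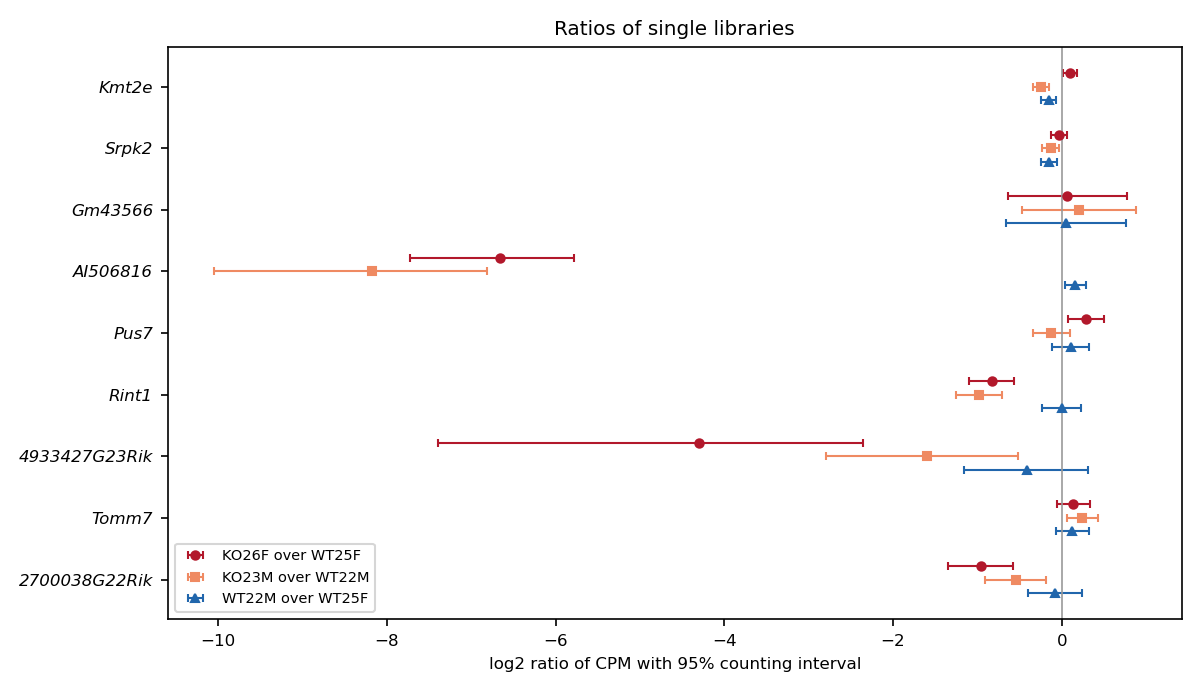
Log2 ratio of CPM for 3 pairs of libraries (symbols; bars, 95% counting intervals) in the 9 genes. For AI506816, Rint1, 4933427G23Rik and 2700038G22Rik the KO26F over WT25F and KO23M over WT22M intervals lie below 0, while for Kmt2e they fall on opposite sides of 0, at 0.10 and -0.24.

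The title letters M and F give a comparison that the choice of genes did not use. They matched the sex-linked genes: Xist stood at 0.0540 CPM in KO23M and 0.169 in WT22M, against 519 in KO26F and 450 in WT25F. In the edgeR test of M over F libraries, none of the 9 genes was called, beside 0.252% of all tested genes. At an unadjusted p under 0.05 in edgeR there were 2 of the 9, Kmt2e and Srpk2, beside 2370 of all 16252 tested genes. Limma voom called none of the 9. DESeq2 gave an adjusted p for Kmt2e and Srpk2 alone among the 9 and called neither. The log2 fold change in Kmt2e was -0.28 (SE 0.08; adjusted p = 0.161 in edgeR), with 95.1 CPM in KO23M and 112 in WT22M, against 134 in KO26F and 125 in WT25F. Both M libraries were below both F libraries. With the knockout or carrier arm as a term in the fit, Kmt2e was called (log2 fold change -0.29, SE 0.07; adjusted p = 0.0058 in edgeR), beside 4.1% of all genes called in that fit. Srpk2, its overlapping neighbour, had -0.16 (SE 0.07, edgeR adjusted p = 0.333), with both M libraries below both F libraries as well.

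AI506816 and Rint1 were not called between the letters in either fit. With the arm as a term, the M over F log2 fold change was 0.12 (SE 0.14, edgeR adjusted p = 0.726) for AI506816 and -0.03 (SE 0.15, edgeR adjusted p = 0.944) for Rint1. It was 0.14 (SE 0.20) for 2700038G22Rik and 0.24 (SE 0.52) for 4933427G23Rik, the widest of the 9 errors in that fit. Without the arm as a term the SE for AI506816 was 2.90, because the libraries of each letter then hold 1 knockout and 1 carrier, so that fit says little about this gene. Tomm7 had 0.22 (SE 0.12) and the remaining genes lay between -0.07 for Pus7 and 0.16 for Gm43566, with 2 libraries per letter throughout.

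The genes next to the window were set beside it. On the side of Kmt2e the nearest tested gene is 5031425E22Rik, a lincRNA that starts just before Kmt2e on the opposite strand, with 27.4 and 31.6 CPM in KO26F and KO23M, against 31.9 and 35.0 in WT25F and WT22M. On the side of 2700038G22Rik it is the protein-coding Fam126a, with 55.8 and 51.3 CPM in KO26F and KO23M, against 50.2 and 47.6 in WT25F and WT22M. For both, the difference between groups was smaller than that of 2700038G22Rik, at log2 fold changes of -0.18 (SE 0.13) and 0.13 (SE 0.11). Within 5 Mb on each side there were 62 tested genes outside the window. With all 4 libraries and no block, none was called between knockouts and carriers by edgeR, DESeq2 or limma voom. In edgeR, 5 of the 62 had an unadjusted p under 0.05, beside 464 of all 16252 tested genes. The median log2 fold change of the 62 was -0.02 and the lowest was -0.49, above the value of each of the 4 lower genes of the window. The window was chosen by this contrast, so that difference is a description and no result. Both knockouts lay below both carriers for 10 of the 62 (16.1%), beside 13.4% of all tested genes. They lay above both carriers for 13 of the 62, beside 13.6% of all tested genes. The highest value, 4.23 (SE 0.89), was that of the small nucleolar RNA Gm22490, named here after its value was seen, which had 14 and 29 counts in KO26F and KO23M, against 2 and 0 in WT25F and WT22M. Gm22490 passed the filter on low counts only with the knockouts, so nothing is read from its value. Its log2 fold change in edgeR was 4.66 without KO26F and 3.61 without KO23M. It was 7.41 without WT25F, where the carrier left had 0 counts, and 3.33 without WT22M.

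**Figure D4:**
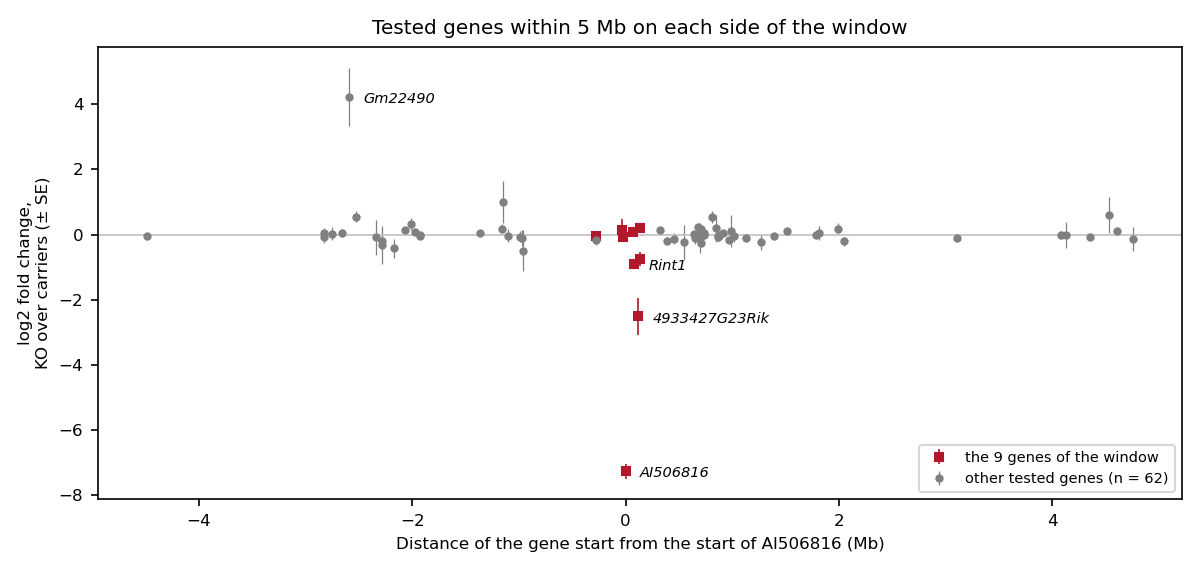
Log2 fold change of knockouts over carriers for the 9 genes of the window (squares) and the 62 other tested genes within 5 Mb on each side (circles). Bars show the edgeR SE defined in the text, and the axis gives distance in Mb from the start of AI506816. The circles have a median of -0.02 and a lowest value of -0.49, with Gm22490 at 4.23 and Gm9057 at 0.999 the highest. AI506816, 4933427G23Rik, Rint1 and 2700038G22Rik lie below the lowest circle, in the contrast by which the window was chosen.

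Partners and relatives of the 5 protein-coding genes, encoded outside the window, were taken as 5 lists. Of these, Kmt2c starts 1.79 Mb from the start of AI506816 and is also among the tested genes beside the window. The lists held 55 tested genes other than the members. None was called between knockouts and carriers by edgeR, DESeq2 or limma voom. In edgeR, 0 of the 55 had an unadjusted p under 0.05, beside 464 of all 16252 tested genes. The 11 other genes of the Rint1 list, its tether partners, SNAREs of that route and further interactors, had a median log2 fold change of -0.02, from -0.22 for Scfd2 to 0.19 for Rad50, beside 0.00 over all tested genes. Among them Use1, a SNARE of the reticulum, had 68.1 and 73.4 CPM in KO26F and KO23M, against 66.0 and 70.7 in WT25F and WT22M. Sec22b, another SNARE of that route, had 57.3 and 60.2 CPM in the knockouts, against 58.2 and 59.5 in the carriers. Bnip1, also a SNARE there, had 30.8 and 35.0 CPM in the knockouts, against 32.0 and 36.4 in the carriers. Rint1 at -0.91 was outside the range of its list, but Rint1 was chosen by this contrast, so its place there is no result.

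Pus7 at 0.09 and Kmt2e at -0.06 lay inside the range of their relatives, and Srpk2 at -0.08 lay just below its own. The 11 other pseudouridine synthases had a median of 0.13, from -0.28 for Pusl1 to 0.24 for Rpusd3, with Rpusd1 at 0.04, Dkc1 at -0.06 and Trub2 at 0.17. The 16 other SR kinases and SR factors had a median of 0.04, from -0.06 for Clk3 to 0.20 for Srsf9. Their most abundant members, Srsf6, Srsf1 and Srsf3, had 0.05, 0.11 and 0.07. The 8 relatives of Kmt2e had a median of 0.03, from -0.07 for Setd2 to 0.10 for Setd1a, with Kmt2d at 0.04, Setd5 at -0.04 and Kmt2b at 0.03. The 9 other genes of the mitochondrial import complexes had a median of -0.08, from -0.17 for Tomm40l to 0.03 for Tomm5, with Tomm20 at -0.09, Samm50 at -0.08 and Tomm40 at 0.02. Tomm7, at 0.19, was above all 9. Between the letters, 0 of the 55 were called by edgeR or limma voom, and 0 of the 25 with an adjusted p by DESeq2. In edgeR, 4 of the 55 had an unadjusted p under 0.05, beside 2370 of all 16252 tested genes.

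**Figure D5:**
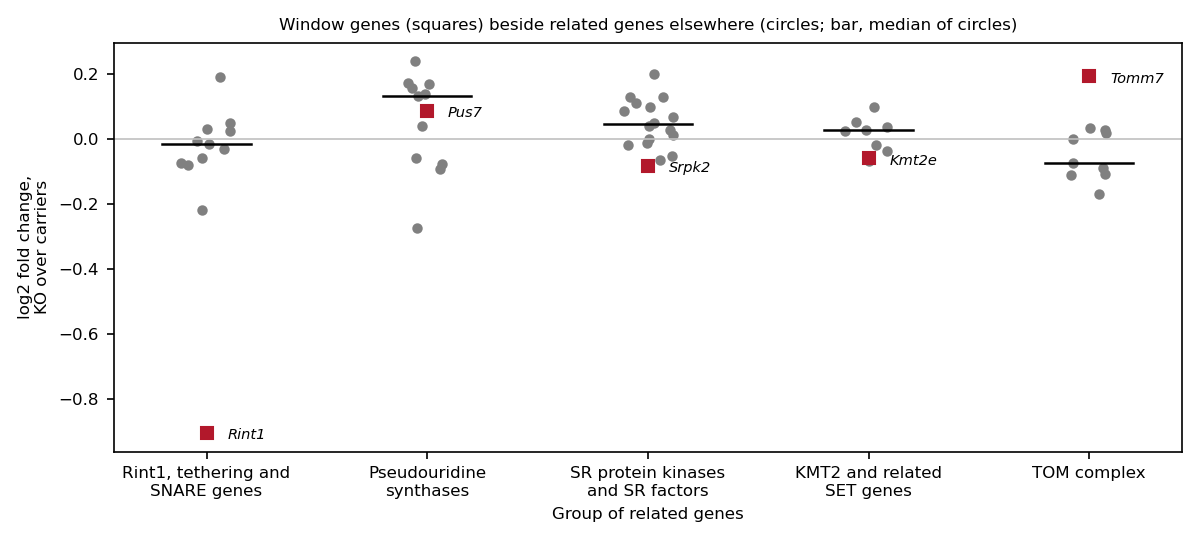
Log2 fold change of knockouts over carriers for the 5 protein-coding genes of the window (squares) and the related genes elsewhere (circles; horizontal bar, their median) in 5 lists. Rint1, chosen by this contrast, lies at -0.91, below all 11 of its partners, which run from -0.22 to 0.19. The other 4 squares lie within 0.2 of 0.

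Genes with a pattern like that of AI506816 were ranked by the lowest carrier CPM divided by the highest knockout CPM, over 4 libraries and 16252 genes, with counts of 0 set to 3 counts. This ratio restates the difference by which AI506816 and Rint1 were chosen, so their own places in the ranking are no result. AI506816 had a ratio of 101. The next were Gm37827 on chromosome 7 at 6.57, Gm8597 on chromosome 17 at 4.42, Gm26897 on chromosome 5 at 4.13, Tlx3 on chromosome 11 at 3.40 and 4930412C18Rik on chromosome 4 at 3.37. Each of these 5 had under 2 CPM in every library, so their ratios rest on few counts. The ratio was 3.02 for 4933427G23Rik, 1.78 for Rint1 and 1.46 for 2700038G22Rik. Among the 11682 genes with a mean of at least 5 CPM, the ratios next below that of Rint1 were those of the pseudogene Pisd-ps2 at 1.57, with 12.3 and 17.9 CPM in KO26F and KO23M, against 35.4 and 28.2 in WT25F and WT22M, and of 6330537M06Rik at 1.54.

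Sequence shared with other genes was examined because the setting for multiple matches was not given. Matches of at least 100 bases at 95% identity or more were found between AI506816 transcripts and those of 7 other genes, covering 48.0% of its longest transcript of 2804 bases. Counts of the 6 outside the window are given next, and the part of shared sequence in the AI506816 difference was not tested. The longest match was to Apobec3, which encodes an antiviral enzyme, over 463 bases, and Apobec3 had 190 and 166 counts in KO26F and KO23M, against 137 and 201 in WT25F and WT22M. The lincRNA Gm26880 had 1 count in KO26F and 38 in KO23M, against 72 in WT25F and 66 in WT22M. Its knockouts were both below both carriers and apart from each other. Chd9, a chromatin remodeller, had 702 and 605 counts in the knockouts, against 635 and 577 in the carriers. Gm43305 had 135 and 115 counts in the knockouts, against 10 in WT25F and 185 in WT22M. Cnbd2 and Gm42031 stayed at 45 counts or fewer. 4933427G23Rik matched Imp3 over 567 bases at 95.8% identity, and Imp3 had 775 and 968 counts in KO26F and KO23M, against 827 and 875 in WT25F and WT22M. For Rint1 such matches covered 342 bases (10.2%) of its longest transcript, and for 2700038G22Rik 535 bases (38.9%).

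The authors' deposited tables compare 3 libraries with WT25F, which they share. In all 3, a gene is marked where the authors' adjusted p is under 0.05 and the absolute log2 fold change at least 1. In them AI506816 was marked as changed for KO26F (log2 fold change -6.66) and for KO23M (-8.02) and not for WT22M (0.16). The pseudogene 4933427G23Rik was likewise marked in the authors' deposited tables for KO26F (-4.30) and KO23M (-2.01). Rint1, at -0.83 for KO26F and -0.98 for KO23M, and 2700038G22Rik, at -0.96 and -0.63, were not marked in the authors' deposited tables, since their fold changes are under that limit. Their adjusted p-values in the authors' deposited tables, from a comparison of single libraries, were 1.5e-08 and 1.3e-11 for Rint1 and 6.5e-06 and 0.0018 for 2700038G22Rik. Of all their genes, 1.96% were marked for KO26F, 2.9% for KO23M and 3.62% for WT22M.

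Markers of tissue makeup were read beside these values. All 11 telencephalon markers were detected, summing to 2424 CPM in KO26F and 2267 in KO23M, against 2056 in WT25F and 2160 in WT22M. The 6 choroid plexus markers summed to 987 and 769 CPM in KO26F and KO23M, against 932 in WT25F and 192 in WT22M. The 7 diencephalon markers summed to 43.4 and 40.2 CPM in the knockouts, against 99.7 in WT25F and 39.0 in WT22M. The 6 erythroid markers summed to 760 and 692 CPM in the knockouts, against 1020 in WT25F and 597 in WT22M. In these 3 lists the carriers stood apart from each other. The 5 meninges markers summed to 184 and 189 CPM in the knockouts, against 238 and 248 in the carriers, and the 5 microglia markers to 60.0 and 64.1 CPM, against 67.2 and 81.8. The 4 endothelium markers summed to 186 and 194 CPM in the knockouts, against 210 and 202 in the carriers. These last 3 sums were lower in both knockouts than in both carriers, and the telencephalon sum was higher in both knockouts. Among single tested genes, 13.4% were lower in both knockouts and 13.6% higher in both. The part of any of these lists in the differences at the window was not tested. None of the listed markers was at 0 over the 4 libraries.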

How the data were processed

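RNA of 4 libraries was made with a TruSeq kit, and the submitters' processing notes list HTSeq 0.6.0, TopHat2 2.0.12, Bowtie2 2.2.3 and the build mm9. Settings for strand and multiple matches were not given in the sources used here. Among 22039 genes matched by identifier, 91.8% had identical positions in GENCODE vM21 (GRCm38), so positions are given on GRCm38.

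Per the file headers, the authors deposited 3 tables of whole-number counts per gene, not normalized, each with 1 library against WT25F. They also deposited normalized values (CPM), a log2 fold change and p-values, whose test was not given in the sources used here. Tables were joined by gene identifier, with a missing gene as a count of 0, and CPM was computed on the joined totals (22084 genes, 19626 in all 3 tables).

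Counts were tested with edgeR 4.0.16 (quasi-likelihood, robust, TMM, filterByExpr; adjusted p under 0.05) on 2 knockouts against 2 carriers, and on M against F. Whether embryos shared a litter is not in the labels; p-values thus cover only the spread between these samples, which may be technical. An exact permutation test of 2 against 2 cannot go below p = 0.333. Scripts were tested on simulated data. The 9 genes and all lists were chosen with earlier results of these data known. Named are the 9 genes, other genes of the window, the nearest tested neighbours, the 3 most abundant of each related list, the genes nearest in pattern and Tcf20; the lowest and highest of each list, the genes sharing sequence and those beside the window other than the nearest were named after their values were seen. Alternatives were limma 3.58.1 voom, DESeq2 1.42.0, RLE size factors, other filters, X and Y genes left out, blocks, exon length or span, and each library left out. Promoters, and the transcripts of AI506816 and 2700038G22Rik, were aligned by local pairwise alignment in Biopython. BLAST 2.17.0 was used for sequence shared with other genes. R 4.3.3 and Python 3.11.15 were used.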

Additional observations from a re-analysis of the deposited data

Results flagged for a closer look

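Kmt2e, the chromatin protein gene, differed between knockout and carrier in opposite directions in the 2 pairs of libraries with the same title letter. KO26F over WT25F had a log2 ratio of 0.10 (95% counting interval 0.01 to 0.18), and KO23M over WT22M had -0.24 (-0.33 to -0.15). The F ratio minus the M ratio was 0.34. With 1 knockout and 1 carrier per letter this difference was not tested.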

How the results depend on the processing

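Between knockouts and carriers, the contrast that chose the genes, fitted log2 fold changes over 11 alternatives were -8.04 to -6.75 for AI506816, -0.96 to -0.86 for Rint1, -4.05 to -1.79 for 4933427G23Rik and -0.94 to -0.57 for 2700038G22Rik, given as a description. The count of called genes, 10 of 16252, was 9 or 10 with RLE size factors, DESeq2, limma voom, both other filters and X and Y genes left out. It was 48 to 100 with 1 library left out, where the lone library of an arm is assumed to vary like the other arm. The lowest value of 4933427G23Rik is that without KO23M and the highest that without KO26F. The count for M against F, 41, was 164 with DESeq2 and 666 with the arm as a block, which called Kmt2e, and 55 to 165 with 1 library left out; the cause was not tested. DESeq2 gave no adjusted p between the letters for 7 of the 9 genes.

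Some uncalled directions turned. Between knockouts and carriers, leaving out single libraries gave Kmt2e -0.30 to 0.15, Srpk2 -0.19 to 0.013 and Pus7 -0.057 to 0.21. For M against F the ranges were -6.95 to 5.85 for AI506816, -0.20 to 0.077 for Pus7, -0.58 to 0.47 for Rint1, -1.03 to 3.26 for 4933427G23Rik and -0.30 to 0.67 for 2700038G22Rik. Limma voom turned AI506816 to -0.55 and 4933427G23Rik to 0.85, and the arm block turned 4933427G23Rik to 0.24. Per kilobase of span, levels were lower for each gene but Gm43566, which has no intron. Counts of 10 or fewer limit AI506816 and 4933427G23Rik in the knockouts.

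With the title letter as a replicate block, 123 genes (0.757%) were called, among them all 10 of the count without it. The added calls included 4933427G23Rik and 2700038G22Rik in the window and Cdk5, Gsap and Gm22490 among the 62 genes beside it. The labels do not pair the libraries, and deviations of same-letter libraries correlated at 0.219 over 16252 genes with 2 pairs.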
